A study of Mus musculus with 24 samples.

Results

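The 32 genes described here mark lymphocytes, the B, T and natural killer (NK) cells of the immune system, and were read from bulk RNAseq of the mouse main olfactory epithelium (OE). They were taken by symbol from a table of 45706 genes and comprise 10 B cell genes, 14 T cell genes, 7 NK and cytotoxic genes, and Ptprcap, which encodes a partner of the CD45 phosphatase and is active in all of these cells. Immunoglobulin genes were not among them. Each library came from the whole OE of both nares of 1 mouse, either wild type (WT) or iRhom2-/-, and the labels give the strain of both as mixed. For the iRhom2-/- line the study names a 129Sv and C57BL/6 mixture. The iRhom2-/- mice carry the germline Rhbdf2 tm1b knockout allele, so their blood cells carry it as well as their epithelium. There were 3 WT and 3 iRhom2-/- mice of 8 weeks, 3 and 3 of 10 weeks, and 6 and 6 in a cohort that holds mice of 5 weeks and of 30 weeks. In that cohort the table's columns give the genotype but not the age, and its libraries are called by their column numbers, 7 to 12 in each genotype. At 8 weeks WT mouse 3, and at 10 weeks mouse 3 of each genotype, were labelled female, and the others of those ages male. The labels count the replicates as separate mice.

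A mucosal surface such as the nasal lining holds scattered T cells and NK cells in and under the epithelium, B cells and antibody-secreting plasma cells near its glands, and organised lymphoid tissue with B cell follicles at a few sites in rodents. B cells recognise antigen through a surface immunoglobulin that signals through CD79A and CD79B. T cells recognise it through a receptor that signals through the CD3 chains, with CD4 or CD8 as co-receptor. NK cells and cytotoxic T cells kill target cells with perforin and granzymes. In a bulk library, fewer lymphocytes and less RNA per lymphocyte cannot be told apart.

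Library totals lay between 25333822 and 48660394 counts, and levels are given as counts per 1000000 counts of the library (CPM), scaled by TMM factors. Before TMM scaling, a count of 3 corresponds to between 0.0617 and 0.118 CPM, depending on the library. A level at or under that count, the floor, is close to no detection. Rhbdf2, the gene that encodes iRhom2, was read at 19.3 to 24.9 CPM in the 12 WT libraries and at 7.19 to 13.4 CPM in the 12 iRhom2-/- libraries, with no overlap. Of the 3 libraries labelled female, 1, that of WT mouse 3 of 8 weeks, carried Ddx3y and not Xist. Cohort and sequencing submission cannot be told apart. Libraries that stood apart from the rest were WT mouse 1 of 8 weeks, in which Bpifb9b of the nasal glands took 5.53% of all counts, and iRhom2-/- mouse 2 of 10 weeks, in which it took 13.6%. Bpifb9b also took 3.24% and 1.92% in WT mice 2 and 3 of 8 weeks, against 0.416%, 0.091% and 0.174% in the iRhom2-/- mice of that age. For the members at 8 weeks, the count that passed, the B, T and NK medians and the fitted differences printed for single genes are given with and without WT mouse 1. The count of members without overlap and the results of the other gene lists at 8 weeks include that mouse. The B, T and NK medians at 10 weeks and the combined count of members are given with and without iRhom2-/- mouse 2 of 10 weeks. For the other gene lists this mouse was kept.

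Lymphocyte transcripts were rare in this tissue. Per kilobase of exon, the highest means over all 24 libraries were those of Cd79a at 2.97 CPM per kb, Cd79b at 2.44 CPM per kb, Spib at 1.56 CPM per kb and Ptprcap at 1.35 CPM per kb. Spib encodes an ETS family transcription factor of B cells. Gzma, a granzyme, followed at 1.18 CPM per kb and Nkg7, a cytotoxic granule protein, at 1.10 CPM per kb. The lowest were Ncr1, the NKp46 receptor of NK cells, at 0.059 CPM per kb and Cr2, the complement receptor of follicular B cells and follicular dendritic cells, at 0.036 CPM per kb.

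**Figure D1:**
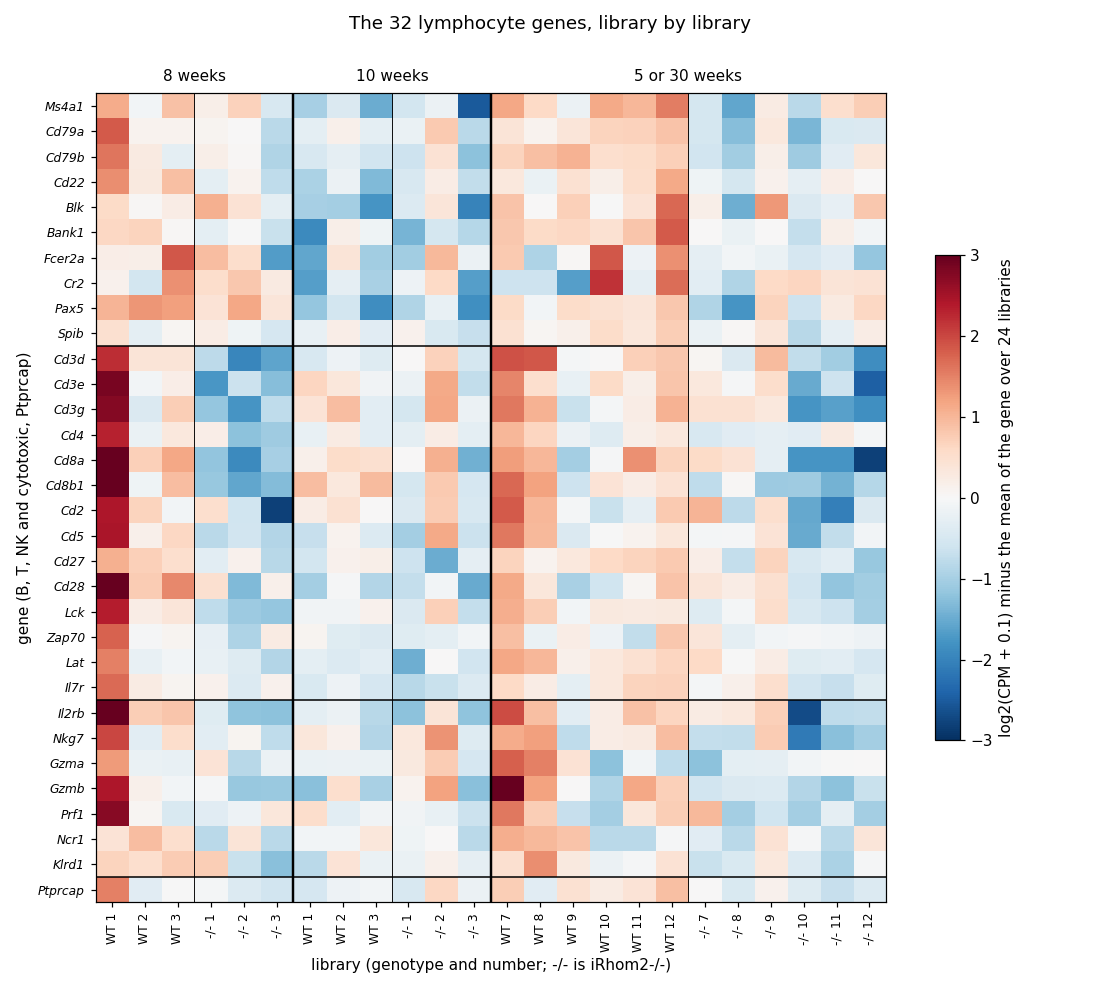
Level of each of the 32 lymphocyte genes (rows, grouped as B, T, NK and cytotoxic, and Ptprcap) in each of the 24 libraries (columns, ordered by cohort and genotype), coloured by log2(CPM + 0.1) less the mean of the gene over the 24 libraries. WT mouse 1 of 8 weeks holds the highest value of 21 of the 32 genes.

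The 250 bases upstream of the RefSeq start of the genes are shown for 2 B cell and 2 T cell members that the results turn on, so that the letters they share can be seen. RefSeq promoters (GRCm38.p6) were found for 22 of the 32 members. Capitals mark the letters AGGAAGT (an ETS factor core), CAGGTG (an E-box) and CCCNNGGG (an EBF core), searched on both strands, and each sequence is written 5′ to 3′ on the strand of its gene. Cd79a lies on the plus strand at chr7:24897247-24897496, Bank1 on the minus strand at chr3:136326067-136326316, Cd3d on the plus strand at chr9:44981536-44981785, and Cd8a on the plus strand at chr6:71373177-71373426.
Cd79a: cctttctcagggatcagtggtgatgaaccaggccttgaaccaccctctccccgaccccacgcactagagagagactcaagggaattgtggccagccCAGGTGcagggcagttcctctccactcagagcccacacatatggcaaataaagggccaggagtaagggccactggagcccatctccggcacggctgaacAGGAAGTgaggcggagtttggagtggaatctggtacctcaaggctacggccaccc
Bank1: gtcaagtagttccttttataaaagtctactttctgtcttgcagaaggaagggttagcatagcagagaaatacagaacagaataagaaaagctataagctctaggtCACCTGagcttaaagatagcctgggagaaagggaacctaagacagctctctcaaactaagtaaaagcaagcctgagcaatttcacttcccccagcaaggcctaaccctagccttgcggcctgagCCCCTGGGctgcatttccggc
Cd3d: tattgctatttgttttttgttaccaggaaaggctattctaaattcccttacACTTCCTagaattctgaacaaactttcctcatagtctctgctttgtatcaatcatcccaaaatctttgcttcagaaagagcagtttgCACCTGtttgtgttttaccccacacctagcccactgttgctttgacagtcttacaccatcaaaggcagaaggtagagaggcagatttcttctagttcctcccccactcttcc
Cd8a: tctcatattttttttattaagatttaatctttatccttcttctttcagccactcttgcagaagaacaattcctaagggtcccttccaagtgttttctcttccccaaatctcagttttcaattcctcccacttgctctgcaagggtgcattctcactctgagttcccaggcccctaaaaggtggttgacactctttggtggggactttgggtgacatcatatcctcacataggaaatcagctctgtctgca
GENCODE (release M21) starts Cd79a further upstream than RefSeq does, so that the last 116 bases of its window lie inside the GENCODE gene, whereas the other 3 windows end where the GENCODE gene begins. A member was counted when any of its promoters held the letters, whereas the promoters in all were counted singly, so the shares compared here are in unlike units. The E-box letters stood in the promoters of 12 of the 22 members (54.5%), against 17.2% of 32851 promoters in all. The ETS letters stood in 7 members (31.8%, against 7.69% of all promoters): Cd79a, Cd3d, Cd3e, Cd5, Lck, Il7r and Prf1. The EBF letters stood in 6 members (27.3% against 11.8%), and TGTGGTT, a RUNX core, stood in 4 (18.2% against 4.4%). ATGCAAAT, the octamer bound by Oct factors, stood in none of the 22 and in 1.6% of all promoters. In the promoters printed, the ETS letters of Cd79a end 49 bases before the RefSeq start and those of Cd3d, on the other strand, end 193 bases before it, while the Cd8a window holds none of these letters. Some members also lie side by side on their chromosomes: Cd3g and Cd3d are 1.35 kb apart and Cd3d and Cd3e 11.4 kb apart on chromosome 9, and Cd8b1 and Cd8a are 35.9 kb apart on chromosome 6.

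At 8 weeks the lymphocyte genes were lower in iRhom2-/- than in WT OE in most cases, and the T cell genes more so than the B cell genes. Of the 32 members, 30 had a lower mean in iRhom2-/- mice. Counts allowed 29 to be tested, all but Gzmb, Prf1 and Ncr1, and 4 of them (13.8%) fell at an adjusted p under 0.1. The test was the quasi-likelihood test of edgeR, and p-values were adjusted over every gene of the fit by the method of Benjamini and Hochberg. Of the 19335 genes tested, 1.74% fell and 3.24% rose, and 0 members rose. The median fitted log2 difference, iRhom2-/- over WT, was −0.69 for the 10 B cell genes, −2.51 for the 14 T cell genes and −1.24 for the 4 NK and cytotoxic genes tested, against −0.0013 for all genes. In 13 of the 29 (44.8%) the iRhom2-/- mice lay wholly under the WT mice, against 10.6% of all genes tested. In 0 of the 29 did they lie wholly above, against 16.1%. Those 13 were the B cell genes Cd79a, Cd22 and Bank1, the T cell genes Cd3d, Cd3e, Cd3g, Cd8a, Cd8b1, Cd5, Cd27, Cd28 and Lck, and Il2rb.

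The first WT mouse of 8 weeks stood far above the other WT mice in these genes. It held the highest level among all 24 libraries for each of the 14 T cell genes, by 1.25-fold to 5.68-fold over the next library (median 2.17-fold). Its summed T cell genes reached 77.5 CPM, and the next library, WT library 7 of the 5 or 30 week cohort, reached 33.3 CPM. Without this mouse 2 members fell at 8 weeks, Cd8a and Lck, the T cell receptor kinase, and the medians were −0.31 for B, −1.40 for T, and −0.75 for NK and cytotoxic genes. How many of all genes fell in that fit is not given here. The same library had the highest summed plasma cell genes, 1730 CPM against 515 CPM in the next, and its summed macrophage genes, 679 CPM, exceeded those of the other 2 WT mice of its age, at 329 and 389 CPM. The part of these other cells in the result was not tested.

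Cd8a and Cd8b1, which encode the 2 chains of the CD8 co-receptor of cytotoxic T cells, differed most at 8 weeks. Cd8a was read at 9.71, 1.05 and 1.46 CPM in WT and at 0.207, 0.0843 and 0.25 CPM in iRhom2-/- mice. WT mouse 1 was far above the rest, but each of the other WT mice was also above every iRhom2-/- mouse. The difference was −4.51 (SE 1.01) on the log2 scale, with an adjusted p of 0.0779 by edgeR's quasi-likelihood test. Cd8b1 was read at 2.87, 0.228 and 0.584 CPM in WT and at 0.0622, 0.0211 and 0.0455 CPM in iRhom2-/- mice, whose values lie at or under the floor. The groups did not overlap, and the difference was −4.78 (SE 1.12), with an adjusted p of 0.0848 by edgeR's quasi-likelihood test. The iRhom2-/- mice held 10, 4 and 11 counts of Cd8a and 3, 1 and 2 of Cd8b1. Both genes passed the filter on low counts through the WT mice, so these calls and separations are not independent of that filter. Without WT mouse 1 the difference was −2.80 for Cd8a and −3.17 for Cd8b1. Leaving out any 1 of the 6 mice ended the Cd8b1 call, and leaving out any but WT mouse 1 ended that of Cd8a.

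The CD3 chains of the T cell receptor complex were lower alongside. Cd3d, a called member named after its values were seen, was read at 2.83, 0.73 and 0.731 CPM in WT and at 0.27, 0.0632 and 0.114 CPM in iRhom2-/- mice, without overlap. Its difference was −3.26 (SE 0.79), with an adjusted p of 0.091 by edgeR's quasi-likelihood test, and the call was lost in 5 of the 6 fits that left out 1 mouse. With 13, 3 and 5 counts in the iRhom2-/- mice, Cd3d also passed the filter on low counts through the WT mice. Cd3e was read at 4.81, 0.547 and 0.682 CPM in WT and at 0.104, 0.337 and 0.182 CPM in iRhom2-/- mice. Cd3g was read at 7.05, 0.684 and 1.66 CPM in WT and at 0.373, 0.211 and 0.524 CPM in iRhom2-/- mice. Neither overlapped between genotypes, and neither passed the threshold, at −3.29 (SE 0.98, adjusted p = 0.133 by edgeR) for Cd3e and −3.11 (SE 0.88, adjusted p = 0.122 by edgeR) for Cd3g. Cd4, the co-receptor of helper T cells that macrophages can also carry, was read at 12.1, 2.03 and 2.95 CPM in WT and at 2.72, 0.949 and 1.07 CPM in iRhom2-/- mice. Here iRhom2-/- mouse 1 lay above WT mouse 2, and the difference of −1.87 (SE 0.75) had an adjusted p of 0.228 by edgeR's quasi-likelihood test. Without WT mouse 1 the differences were −2.28 for Cd3d, −1.57 for Cd3e, −1.67 for Cd3g and −0.67 for Cd4.

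Il2rb, the beta chain of the receptor for interleukins that sustain NK and memory T cells, was the fourth member that fell and was also named after its values were seen. It was read at 7.9, 1.35 and 1.44 CPM in WT and at 0.581, 0.274 and 0.273 CPM in iRhom2-/- mice. The groups did not overlap, with a difference of −3.26 (SE 0.82) and an adjusted p of 0.0987 by edgeR's quasi-likelihood test, and the call was lost when any 1 mouse was left out. The cytotoxic genes Nkg7 and Gzma had smaller fitted differences. Nkg7 was read at 3.53, 0.616 and 1.19 CPM in WT and at 0.622, 0.843 and 0.432 CPM in iRhom2-/- mice, and the groups overlapped (−1.51, SE 0.66, adjusted p = 0.259 by edgeR). Gzma was read at 2.57, 0.866 and 0.852 CPM in WT and at 1.37, 0.527 and 0.888 CPM in iRhom2-/- mice, also with overlap (−0.65, SE 0.57, adjusted p = 0.564 by edgeR). Without WT mouse 1 the differences were −1.89 for Il2rb, −0.53 for Nkg7 and 0.095, higher in iRhom2-/- mice, for Gzma. Ncr1 was read at 0.131, 0.228 and 0.146 CPM in WT and at 0, 0.126 and 0 CPM in iRhom2-/- mice, which is too close to the floor to be compared.

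No B cell gene passed the threshold at 8 weeks. Cd79a was read at 14, 4.13 and 4.07 CPM in WT and at 4.02, 3.84 and 2.12 CPM in iRhom2-/- mice. WT mouse 1 stood apart, while the other WT mice lay just above the highest iRhom2-/- mouse (−1.17, SE 0.54, adjusted p = 0.277 by edgeR). Cd79b was read at 9.54, 3.69 and 2.48 CPM in WT and at 3.48, 3.14 and 1.59 CPM in iRhom2-/- mice, with overlap. Ms4a1, the CD20 surface protein of mature B cells, was read at 2.66, 1.12 and 2.26 CPM in WT and at 1.35, 1.96 and 0.819 CPM in iRhom2-/- mice, with overlap (−0.56, SE 0.44, adjusted p = 0.515 by edgeR). Blk, a B cell kinase of the Src family, was read at 0.871, 0.57 and 0.658 CPM in WT and at 1.26, 0.78 and 0.432 CPM in iRhom2-/- mice, with the highest mouse among the iRhom2-/- mice. Without WT mouse 1 the differences of Cd79a and Ms4a1 were −0.32 and −0.31.

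**Figure D2:**
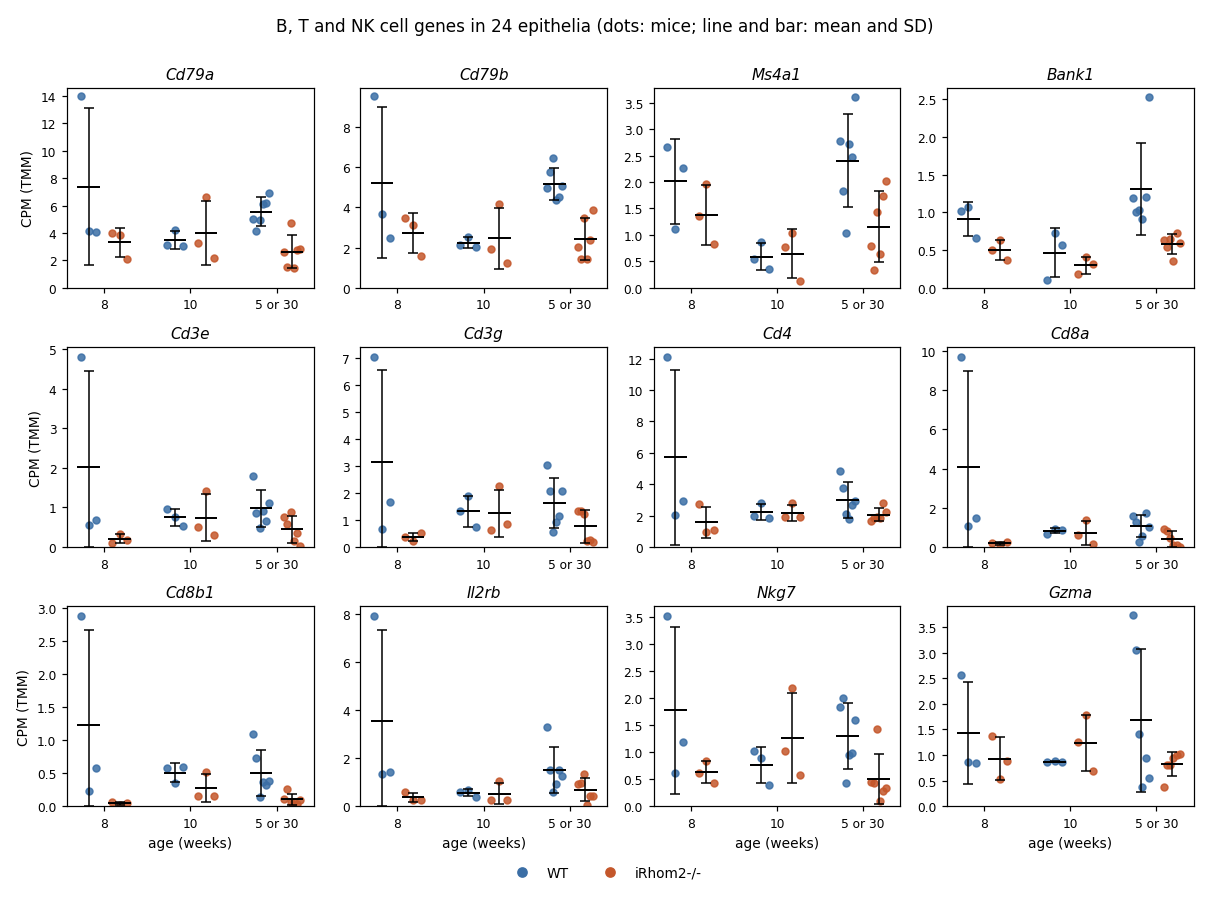
Levels in CPM (vertical axis) of 12 lymphocyte genes in each mouse (dots), with the mean (line) and SD (bar) of each genotype in each cohort (horizontal axis). At 8 weeks Cd8a lies at 9.71, 1.05 and 1.46 CPM in WT and at or under 0.25 CPM in iRhom2-/- mice, whereas at 10 weeks the genotypes overlap.

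At 10 weeks no lymphocyte gene passed the threshold. Of the 32 members, 24 could be tested and 0 passed by edgeR's quasi-likelihood test in either direction, against 0.112% of 18764 genes that fell and 0.0853% that rose. None had an unadjusted p under 0.05, against 7.79% of all genes, and the smallest adjusted p was 0.801, for Cd8b1. DESeq2 called 0 as well, against 289 of 18764 genes. Of the 24, 12 were fitted lower and 12 higher, and the medians were 0.13 for B, −0.062 for T, and 0.26 for NK and cytotoxic genes. In 0 of the 24 were the groups apart with iRhom2-/- lower, against 6.44% of all genes tested, and in 0 with iRhom2-/- higher, against 6.76%.

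A single library also stood apart at this age, here an iRhom2-/- one. Mouse 2 of the iRhom2-/- group had the highest level of its cohort for 8 of 10 B cell genes, 8 of 14 T cell genes and 4 of 7 NK and cytotoxic genes. Without it the medians were −0.37 for B, −0.67 for T, and −0.06 for NK and cytotoxic genes. Its library also had the highest erythroid sum of the 24, at 6187 CPM, and the highest macrophage sum, at 758 CPM. The part of blood or of other leukocytes in these levels was not tested.

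The T cell members with the widest separation at 8 weeks overlapped between genotypes at 10 weeks. Cd8a was read at 0.674, 0.919 and 0.867 CPM in WT and at 0.598, 1.37 and 0.155 CPM in iRhom2-/- mice. Cd8b1 was read at 0.578, 0.349 and 0.598 CPM in WT and at 0.15, 0.519 and 0.155 CPM in iRhom2-/- mice. In both, iRhom2-/- mice 1 and 3 were under every WT mouse and mouse 2 was not. Cd3e was read at 0.963, 0.761 and 0.538 CPM in WT and at 0.508, 1.41 and 0.31 CPM in iRhom2-/- mice. Cd3g was read at 1.32, 1.9 and 0.747 CPM in WT and at 0.628, 2.26 and 0.836 CPM in iRhom2-/- mice. Cd4 was nearly level, at 1.99, 2.79 and 1.85 CPM in WT and at 1.88, 2.78 and 1.89 CPM in iRhom2-/- mice. Mouse 2 of the iRhom2-/- group was the highest of its cohort for Cd8a, Cd3e and Cd3g.

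The B cell and cytotoxic members of 10 weeks had the same mouse at their top. Cd79a was read at 3.08, 4.22 and 3.08 CPM in WT and at 3.29, 6.6 and 2.14 CPM in iRhom2-/- mice. Cd79b was read at 2.15, 2.54 and 2.03 CPM in WT and at 1.94, 4.19 and 1.24 CPM in iRhom2-/- mice. Ms4a1 was read at 0.546, 0.856 and 0.359 CPM in WT and at 0.777, 1.04 and 0.124 CPM in iRhom2-/- mice. In these B cell genes iRhom2-/- mouse 3 was the lowest of the 6 and mouse 2 the highest. Nkg7 was read at 1.03, 0.888 and 0.389 CPM in WT and at 1.02, 2.19 and 0.589 CPM in iRhom2-/- mice. Gzma was read at 0.867, 0.888 and 0.867 CPM in WT and at 1.26, 1.78 and 0.681 CPM in iRhom2-/- mice. Blk was read at 0.225, 0.222 and 0.0897 CPM in WT and at 0.389, 0.741 and 0.0619 CPM in iRhom2-/- mice. All 3 overlapped between genotypes. Ncr1 stayed at or near the floor, from 0 to 0.12 CPM.

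In the cohort of 5 or 30 weeks every lymphocyte gene had a lower mean in iRhom2-/- mice, and the medians of the B and T genes were close to each other. All 26 members tested were fitted lower, against 50.3% of all 18481 genes tested, and 14 of them had an unadjusted p under 0.05, against 14.2% of all genes. The gene that fell was Cd79b, 1 of 26 (3.85%), against 0.422% of all genes that fell and 0.649% that rose, and 0 members rose. The medians were −0.80 for B, −0.89 for T, and −1.07 for NK and cytotoxic genes, against −0.0015 for all genes. In Cd79b and Bank1, 2 of the 26 (7.69%), the 6 iRhom2-/- libraries lay wholly under the 6 WT libraries, against 0.666% of all genes tested. In 0 of the 26 were they wholly above, against 0.996% of all genes.

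Cd79b and Bank1, whose genotypes did not overlap, carried the clearest differences here. Cd79b was read at 4.35 to 6.46 CPM in WT (median 5.01) and at 1.4 to 3.9 CPM in iRhom2-/- libraries (median 2.2). It fell by 1.07 on the log2 scale (SE 0.25, adjusted p = 0.0951 by edgeR's quasi-likelihood test), and the call was lost in 10 of the 12 fits that left out 1 library, with adjusted p between 0.0725 and 0.208. Cd79a was read at 4.12 to 6.94 CPM in WT (median 5.58) and at 1.4 to 4.75 CPM in iRhom2-/- libraries (median 2.67). The groups overlapped narrowly, and the difference of −1.06 (SE 0.27) had an adjusted p of 0.112 by edgeR's quasi-likelihood test. Bank1, a scaffold protein of B cell receptor signalling that was named after its values were seen, was read at 0.918 to 2.53 CPM in WT (median 1.11) and at 0.351 to 0.725 CPM in iRhom2-/- libraries (median 0.614). Its groups did not overlap, and its difference was −1.16 (SE 0.29, adjusted p = 0.112 by edgeR). Ms4a1 was read at 1.03 to 3.61 CPM in WT (median 2.59) and at 0.336 to 2.02 CPM in iRhom2-/- libraries (median 1.11), with overlap and a difference of −1.03 (SE 0.41, adjusted p = 0.281 by edgeR). Blk ranged from 0.544 to 2.05 CPM in WT (median 0.866) and from 0.134 to 1.49 CPM in iRhom2-/- libraries (median 0.543).

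The T cell genes of this cohort overlapped between genotypes throughout. Cd3e was read at 0.486 to 1.8 CPM in WT (median 0.891) and at 0.0247 to 0.882 CPM in iRhom2-/- libraries (median 0.458), a difference of −1.11 (SE 0.56, adjusted p = 0.398 by edgeR). Cd3g was read at 0.567 to 3.05 CPM in WT (median 1.61) and at 0.197 to 1.35 CPM in iRhom2-/- libraries (median 0.732), a difference of −1.11 (SE 0.57, adjusted p = 0.408 by edgeR). The medians of both were lower in iRhom2-/- libraries, but each genotype reached into the range of the other. Cd8a was read at 0.243 to 1.71 CPM in WT (median 1.14) and at 0 to 0.936 CPM in iRhom2-/- libraries (median 0.29), a difference of −1.39 (SE 0.73, adjusted p = 0.415 by edgeR). Cd8b1 was read at 0.135 to 1.08 CPM in WT (median 0.378) and at 0.0345 to 0.269 CPM in iRhom2-/- libraries (median 0.0845), too low for the fit of this cohort. Cd4 was read at 1.77 to 4.81 CPM in WT (median 2.8) and at 1.65 to 2.83 CPM in iRhom2-/- libraries (median 1.89), a difference of −0.53 (SE 0.25, adjusted p = 0.346 by edgeR).

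The cytotoxic genes had a wide spread within each genotype. Nkg7 was read at 0.432 to 2.01 CPM in WT (median 1.29) and at 0.105 to 1.43 CPM in iRhom2-/- libraries (median 0.391), a difference of −1.34 (SE 0.52, adjusted p = 0.275 by edgeR). Gzma was read at 0.374 to 3.73 CPM in WT (median 1.18) and at 0.374 to 1.01 CPM in iRhom2-/- libraries (median 0.881), a difference of −1.0 (SE 0.51, adjusted p = 0.393 by edgeR). The lowest libraries of both genotypes were level for Gzma, and the genotypes parted at the upper end. Ncr1 ranged from 0 to 0.271 CPM in WT (median 0.143) and from 0 to 0.136 CPM in iRhom2-/- libraries (median 0.0538).

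With the 3 cohorts combined and cohort as a term, 30 of 31 members tested were fitted lower in the 12 iRhom2-/- libraries, and 3 of the 31 (9.68%) fell, against 0.852% of 20763 genes that fell. No member rose, against 1.12% of those genes. An unadjusted p under 0.05 was reached by 25 members, against 12.4% of all genes tested. The medians were −0.58 for B, −1.06 for T, and −1.15 for NK and cytotoxic genes, against −0.0011 for all genes. Cd8b1 fell by 2.40 on the log2 scale (SE 0.52, adjusted p = 0.0206 by edgeR's quasi-likelihood test), 5.27-fold, and the call held in all 24 fits that left out 1 library. Bank1 fell by 0.97 (SE 0.25, adjusted p = 0.0517 by edgeR's quasi-likelihood test), and the call was lost in 1 of those 24 fits, the one without WT library 12. Cd27, a costimulatory receptor of the tumour necrosis factor receptor family that was also named after its values were seen, fell by 1.06 (SE 0.29, adjusted p = 0.0743 by edgeR's quasi-likelihood test), and its call was lost in 16 of the 24. Its levels were low, at 0.161 to 0.697 CPM in WT and 0.0371 to 0.509 CPM in iRhom2-/- libraries, and the genotypes overlapped.

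The lineage genes did not pass the threshold in this fit. The differences were −0.78 for Cd79a (SE 0.26, adjusted p = 0.167 by edgeR), −0.76 for Cd79b (SE 0.25, adjusted p = 0.166 by edgeR) and −0.65 for Ms4a1 (SE 0.32, adjusted p = 0.401 by edgeR). They were −1.35 for Cd3e (SE 0.50, adjusted p = 0.239 by edgeR), −1.32 for Cd3g (SE 0.48, adjusted p = 0.221 by edgeR), −0.74 for Cd4 (SE 0.29, adjusted p = 0.262 by edgeR) and −1.79 for Cd8a (SE 0.63, adjusted p = 0.204 by edgeR). Of the cytotoxic genes, Nkg7 differed by −0.89 (SE 0.41, adjusted p = 0.376 by edgeR) and Gzma by −0.55 (SE 0.34, adjusted p = 0.566 by edgeR). How many members fell depended on single libraries: 15 did without iRhom2-/- mouse 2 of 10 weeks, 1 did without WT library 12, and 7 did when WT mouse 1 of 8 weeks and iRhom2-/- mouse 2 of 10 weeks were both left out, a choice made after the data were seen. In that last fit 245 of 21105 genes fell. How many of all genes fell in the fits without 1 library is not given here, so those counts of members have no share to be set against.

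The remaining members are given by their range over the 12 libraries of each genotype, which overlapped for each of the genes given. Among the B cell genes, Cd22, an inhibitory receptor of the B cell receptor, was read at 0.419 to 3.31 CPM in WT (median 1.5) and at 0.66 to 1.41 CPM in iRhom2-/- libraries (median 1.03). Pax5, the transcription factor that fixes B cell identity, was read at 0.179 to 2.46 CPM in WT (median 1.35) and at 0.186 to 2.19 CPM in iRhom2-/- libraries (median 0.959). Spib was read at 3.35 to 7.22 CPM in WT (median 4.86) and at 2.35 to 5.6 CPM in iRhom2-/- libraries (median 3.81). The median of each of the 3 was lower in iRhom2-/- libraries.

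T cell signalling and surface members showed the same order of medians. Lck was read at 1.61 to 9.34 CPM in WT (median 2.13) and at 0.728 to 2.93 CPM in iRhom2-/- libraries (median 1.17). Zap70, the kinase that Lck activates, was closer, at 0.728 to 4.68 CPM in WT (median 1.31) and 0.632 to 1.68 CPM in iRhom2-/- libraries (median 1.18). Lat, the adaptor that Zap70 phosphorylates, was read at 1.36 to 5.4 CPM in WT (median 2.18) and at 0.598 to 2.81 CPM in iRhom2-/- libraries (median 1.43). The upper end of all 3 WT ranges is WT mouse 1 of 8 weeks. Il7r, the receptor for interleukin-7, was read at 1.05 to 5.14 CPM in WT (median 1.81) and at 0.807 to 2.21 CPM in iRhom2-/- libraries (median 1.14). Cd2, an adhesion receptor, had medians of 0.781 CPM in WT and 0.411 CPM in iRhom2-/- libraries, Cd5, a brake on receptor signalling, 0.648 and 0.35 CPM, and Cd28, the costimulatory receptor, 0.432 and 0.272 CPM. None of these 7 passed the threshold in any of the 4 comparisons.

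Several killer cell genes were near the floor. Gzmb, a granzyme, was over the floor in 15 of 24 libraries, with a median of 0.3 CPM in WT and 0.105 CPM in iRhom2-/- libraries, and its highest level, 3.32 CPM, was in WT library 7 of the 5 or 30 week cohort. Prf1, perforin, was over the floor in 10 of 24, with a median of 0.136 CPM in WT and 0.0656 CPM in iRhom2-/- libraries. Klrd1, the CD94 chain of NK receptors, had a median of 0.514 CPM in WT and 0.262 CPM in iRhom2-/- libraries. Ptprcap was read at 1.38 to 5.94 CPM in WT (median 2.2) and at 1.21 to 3.15 CPM in iRhom2-/- libraries (median 1.5), without passing the threshold in any comparison.

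**Figure D3:**
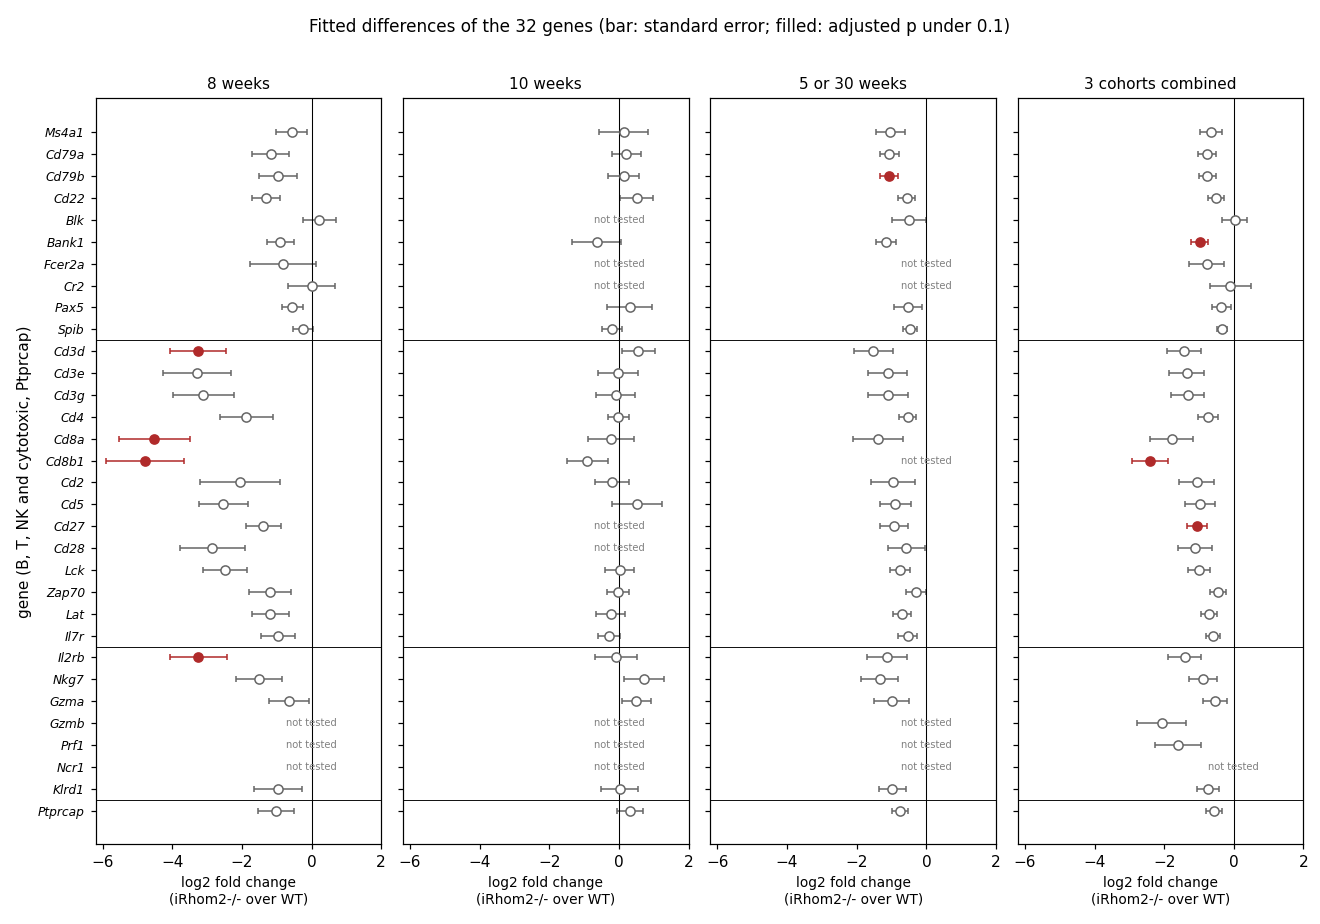
Fitted log2 fold change, iRhom2-/- over WT (horizontal axis), of each lymphocyte gene tested (rows) at 8 weeks, 10 weeks and 5 or 30 weeks and with the cohorts combined, with bars for the standard error and filled points where the adjusted p was under 0.1. All 26 values of the 5 or 30 week cohort lie left of 0, and the T cell genes at 8 weeks lie farthest left, down to −4.78 for Cd8b1.

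Whether the genotype difference itself varied between cohorts was tested with an interaction term. Of 31 members 0 passed by edgeR's quasi-likelihood test, against 0.0482% of all genes, 10 had an unadjusted p under 0.05, against 12.7% of all genes, and the smallest adjusted p was 0.269, for Lck. The likelihood ratio test of DESeq2 called 1 member, Lck, and 495 of 20763 genes in all. The T cell differences at 8 weeks and at 10 weeks therefore stand side by side as values, without a difference between ages that passed by edgeR. In mean level, 16 of the 32 members were lower in all 3 cohorts, and 30 were lower both at 8 weeks and in the 5 or 30 week cohort.

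The balance of B and T genes was followed mouse by mouse as the summed CPM of the 10 B cell genes over that of the 14 T cell genes. At 8 weeks this ratio was 0.516, 1.24 and 1.17 in WT and 1.72, 2.80 and 1.33 in iRhom2-/- mice, and each iRhom2-/- mouse lay above each WT mouse. The separation rested on the most abundant gene of each list: without those genes the highest WT ratio was 1.17 and the lowest iRhom2-/- ratio 1.10. With every gene weighted equally, as the mean log2 level of B less that of T genes, the genotypes also overlapped, from −0.71 to 0.38 (mean 0.0013) in WT and from 0.34 to 0.86 (mean 0.60) in iRhom2-/- mice. The mean log2 ratio was 1.03 higher in iRhom2-/- mice at this age. At 10 weeks the ratio was 0.841, 1.07 and 0.864 in WT and 1.43, 1.02 and 0.823 in iRhom2-/- mice, with overlap and a log2 difference of 0.21. In the 5 or 30 week cohort it ranged from 0.738 to 1.89 in WT (median 1.47) and from 0.751 to 2.25 in iRhom2-/- libraries (median 1.16), with a log2 difference of −0.11. The lowest ratio of the 24 libraries was that of WT mouse 1 of 8 weeks, whose T cell sum was the highest, and the highest that of iRhom2-/- mouse 2 of the same age, whose T cell sum was the lowest, at 6.66 CPM. Without WT mouse 1 the log2 difference at 8 weeks was 0.62.

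**Figure D4:**
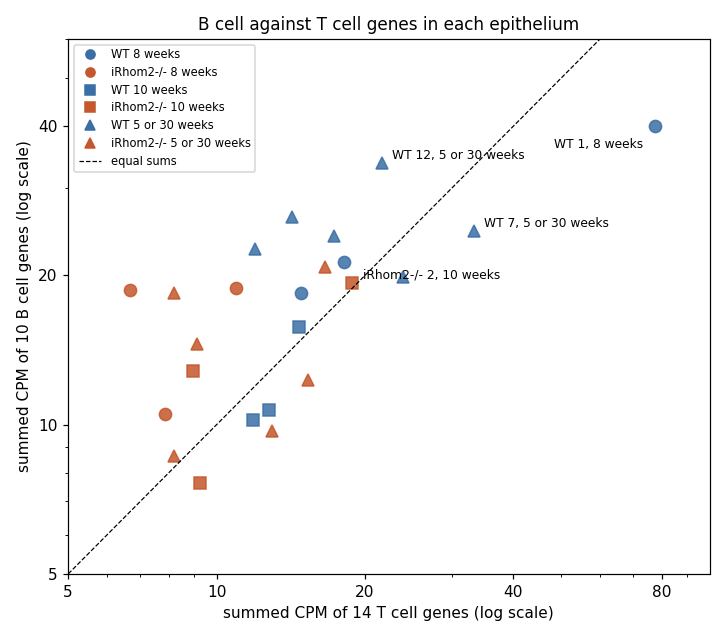
Summed CPM of the 10 B cell genes (vertical axis) against summed CPM of the 14 T cell genes (horizontal axis) in each of the 24 libraries, both on log scales, by genotype and cohort. WT mouse 1 of 8 weeks lies far right at 77.5 CPM of T cell genes, and the 3 iRhom2-/- mice of 8 weeks lie at 6.66 to 11.0 CPM.

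Nasal lymphoid tissue in single samples was looked for with the follicular members Cr2 and Fcer2a, the low-affinity IgE receptor CD23 of resting B cells. At 8 weeks Cr2 was read at 0.24, 0.114 and 0.706 CPM in WT and at 0.352, 0.443 and 0.273 CPM in iRhom2-/- mice, and Fcer2a at 0.348, 0.342 and 1.32 CPM in WT and at 0.643, 0.464 and 0.0228 CPM in iRhom2-/- mice. WT mouse 3 was the highest of its age for both, and for neither were the genotypes apart. At 10 weeks Cr2 was read at 0, 0.158 and 0.0598 CPM in WT and at 0.179, 0.371 and 0 CPM in iRhom2-/- mice, and Fcer2a at 0.0321, 0.412 and 0.0897 CPM in WT and at 0.0897, 0.667 and 0.248 CPM in iRhom2-/- mice. Here iRhom2-/- mouse 2 was the highest for both. In the 5 or 30 week cohort Cr2 ranged from 0 to 1.29 CPM in WT (median 0.131) and from 0.0672 to 0.386 CPM in iRhom2-/- libraries (median 0.316), and Fcer2a from 0.104 to 1.33 CPM in WT (median 0.437) and from 0.074 to 0.269 CPM in iRhom2-/- libraries (median 0.216). WT libraries 10 and 12 stood out for both genes, since Cr2 was read at 1.29 and 0.902 CPM and Fcer2a at 1.33 and 0.902 CPM.

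Other genes of lymphoid tissue were read in the same libraries. Cxcl13, the chemokine that draws B cells into follicles, was highest in WT library 12, at 4.06 CPM, followed by WT library 7 at 2.47 CPM, WT library 10 at 1.80 CPM and WT mouse 3 of 8 weeks at 0.877 CPM, against a median of 0.207 CPM over the 24. Its receptor Cxcr5 was highest in WT libraries 12 and 10, at 1.04 and 0.782 CPM. Glycam1, a ligand for L-selectin made by high endothelial venules, was over the floor in 6 libraries and highest in WT library 12 at 1.11 CPM and WT mouse 3 of 8 weeks at 0.925 CPM. Madcam1, an adhesion molecule of mucosal vessels, was over the floor in 5 libraries and at most 0.269 CPM, in WT mouse 3 of 10 weeks. Several of these markers were high in the same libraries, though not all. WT library 12 was among the top 3 for Cr2, Fcer2a, Cxcl13, Cxcr5, Glycam1, the chemokine Ccl19 and Ltb, but not for Madcam1. WT library 10 was among the top 3 for Cr2, Fcer2a, Cxcl13 and Cxcr5, but not for Glycam1, Ccl19, Ltb or Madcam1. WT mouse 1 of 8 weeks, the highest in T cell genes, was not among the top 3 for Cr2 or Fcer2a, but it was the highest for Ltb, a lymphotoxin chain, at 8.58 CPM and next after those 2 WT libraries for Cxcr5 at 0.762 CPM, and its Cxcl13, at 0.762 CPM, was close to that of mouse 3. Ccl21a, a chemokine of lymphatic vessels and T zones, was read at 43.8 and 41.6 CPM in WT libraries 10 and 12 and at 81.0 CPM in iRhom2-/- mouse 2 of 10 weeks, and Madcam1 was at 0 in both WT libraries. Summed over the whole list of 18 lymphoid tissue genes, the highest libraries were iRhom2-/- mice 2 and 3 of 10 weeks, at 233 and 222 CPM. Such a sum follows its abundant genes. In that mouse 2, Ccl21a had 2186 counts, while Cxcl13, Cxcr5 and Glycam1 had 9, 2 and 0.

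**Figure D5:**
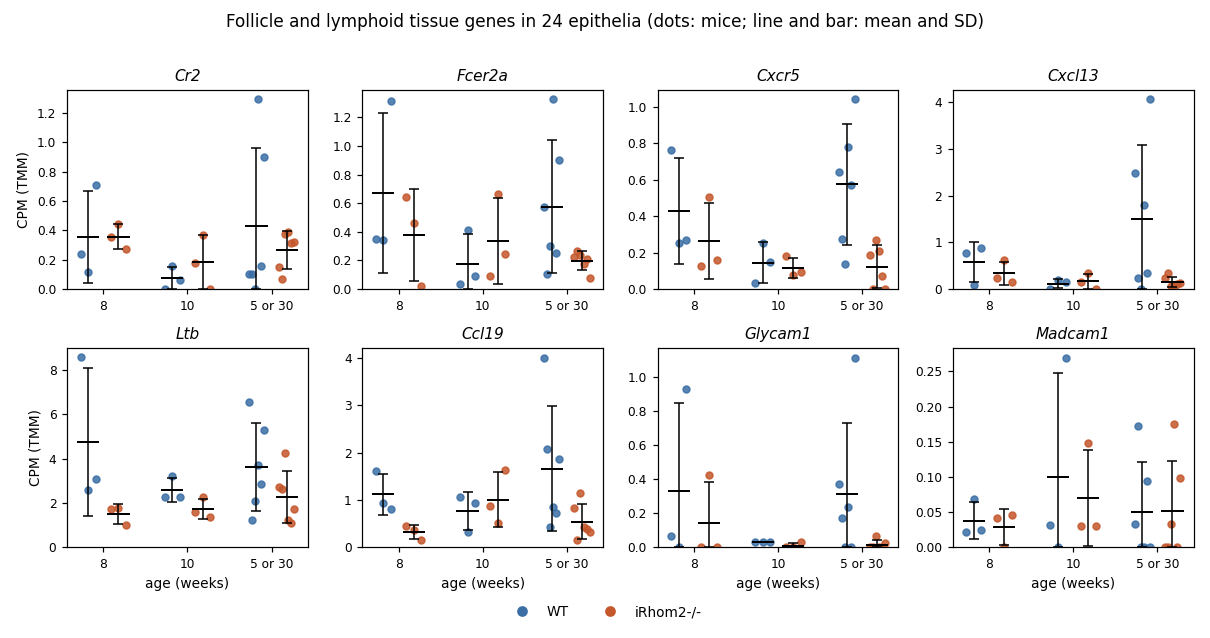
Levels in CPM (vertical axis) of 8 genes of B cell follicles and lymphoid tissue (Cr2, Fcer2a, Cxcr5, Cxcl13, Ltb, Ccl19, Glycam1 and Madcam1) in each of the 24 libraries (dots), by cohort and genotype (horizontal axis), with mean (line) and SD (bar). WT library 12 of the 5 or 30 week cohort reaches 4.06 CPM of Cxcl13 and 1.11 CPM of Glycam1.

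Other genes of the same pathways were counted from lists taken beside the members. Of other T cell receptor pathway genes, 17 of 19 tested were fitted lower at 8 weeks (median −0.75) and 1 fell, Cd6, a surface receptor of T cells. In the 5 or 30 week cohort 14 of 17 were fitted lower and 0 passed by edgeR's quasi-likelihood test, 1 having an unadjusted p under 0.05. Of other B cell receptor pathway genes, 18 of 20 were fitted lower at 8 weeks (median −0.71), none fell and 1 rose, Pou2f2, which encodes the Oct-2 transcription factor. With the cohorts combined 17 of 20 were fitted lower and 2 fell, Syk, the kinase downstream of the B cell receptor, and Ciita, the regulator of MHC class II genes, both also active in other leukocytes. Of other NK and innate lymphocyte genes, 8 of 9 were fitted lower at 8 weeks (median −1.53) and 2 fell, the NK receptors Klrb1c and Klrc1. Of the lymphoid tissue genes, 13 of 15 were fitted lower at 8 weeks (median −0.72) and 2 fell, the chemokines Ccl20 and Ccl9. In the 5 or 30 week cohort 10 of 12 were fitted lower (median −0.40), and combined 13 of 16 (median −0.54). By edgeR's test 0 passed in either, while 5 and 8 had an unadjusted p under 0.05. Ebf1, a B lineage transcription factor in blood, was read at 141 to 305 CPM and is not specific to B cells in this tissue.

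Markers of other leukocytes were set beside these results. All 12 macrophage genes were fitted lower in iRhom2-/- mice at 8 weeks (median −0.70), in the 5 or 30 week cohort (median −0.33) and with the cohorts combined (median −0.30), where Aif1 fell. At 10 weeks 2 of 12 were lower. Plasma cell genes were lower in 7 of 7 at 8 weeks (median −0.94), where Jchain, the joining chain of secreted antibodies, fell, in 4 of 7 in the 5 or 30 week cohort (median −0.071) and in 8 of 8 combined (median −0.30). The plasma cell sums of the 8 week mice were 1730, 311 and 307 CPM in WT and 200, 198 and 210 CPM in iRhom2-/- mice. Erythroid genes were fitted lower in 7 of 7 at 8 weeks (median −0.54) and in 7 of 7 in the 5 or 30 week cohort (median −0.30), and higher in 7 of 7 at 10 weeks (median 1.18). The rise at 10 weeks rested on iRhom2-/- mouse 2, with an erythroid sum of 6187 CPM, against 743 and 519 CPM in iRhom2-/- mice 1 and 3. The WT mice of that age had 1237, 1559 and 639 CPM. Neutrophil genes were fitted lower in 10 of 10 in the 5 or 30 week cohort (median −0.24), in 4 of 10 at 8 weeks and in 1 of 10 at 10 weeks. By edgeR's test 0 genes of either list passed in any of these comparisons. At 10 weeks 8 neutrophil genes and 0 erythroid genes had an unadjusted p under 0.05, and at 8 weeks and in the 5 or 30 week cohort 0 neutrophil genes and 1 erythroid gene did. Genes of olfactory sensory neurons went the other way at 8 weeks, 7 of 8 fitted higher (median 0.49), and 2 of them, Cnga2 and Cnga4 of the odour-gated channel, rose. At 10 weeks 7 of the 8 were fitted lower (median −0.19), and in the 5 or 30 week cohort 6 were fitted higher (median 0.050). Of the sustentacular and gland genes, 2 of 6 were fitted lower at 8 weeks (median 0.11), and 1 fell, Bpifb9b, by 4.08 on the log2 scale. The part of these shifts in the lymphocyte results was not tested.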

How the data were processed

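Bulk RNAseq of the OE was measured in 24 mice, 12 WT and 12 iRhom2-/-. The authors aligned reads with STAR to GRCm38 and deposited RSEM estimated counts per gene, as whole numbers and not scaled for depth. Columns that hold the study's own comparisons (log2 fold changes, test statistics, p-values and adjusted values) were not used. Rows without a symbol, 3926 of 45706 and 1.11% of counts, were kept under their gene identifiers in library sizes and tests.

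Counts were tested with edgeR 4.0.16 (R 4.3.3) after filterByExpr and TMM scaling, by the quasi-likelihood test within each cohort, and over all libraries with cohort as a term. A gene high in a single genotype passes that filter, so a member can be tested on the strength of its WT mice. Benjamini-Hochberg adjustment covered every gene in the fit, and the threshold was 0.1. Printed CPM use TMM factors over all 24 libraries. DESeq2 1.42.0 served as an alternative. The 8 week fit was tested on simulated data, in which 106 of 197 genes changed 2-fold were called, and 17 other genes of the 19002 tested. The depth of 25333822 to 48660394 counts sets a floor of 3 counts, which covers counting error only. No 2 libraries of a group agreed within sampling noise (42 pairs).

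The members, the lists of other genes and the comparisons were chosen with earlier results of these data known. Values by mouse, or the range and median in groups of 6, are given for Cd79a, Ms4a1, Cr2, Fcer2a, Cd3e, Cd3g, Cd4, Cd8a, Ncr1, Gzma and Nkg7 and for the member with the smallest p in each direction in each comparison. Alternatives were another scaling (RLE), filters on low counts, other tests, a joint fit of all groups, a replicate block, male-labelled mice only, and each library left out in turn. A gene of the lymphoid tissue list is not reported here.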

Additional observations from a re-analysis of the deposited data

Results flagged for a closer look

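Within the groups of 6, single genes, summed gene lists and the B to T ratio were examined in each genotype for a single library far from the other 5. Of these 36 combinations 4 were found, all of single genes, where chance marks about 1 in 20. Gzma in iRhom2-/- library 7 was low, at 0.374 CPM, with the next at 0.807 CPM. Nkg7 in iRhom2-/- library 9 was high, at 1.43 CPM, with the next at 0.449 CPM. Blk in WT library 12, one of the libraries high in Cr2 and Cxcl13, was high, at 2.05 CPM, with the next at 1.08 CPM. Cd8b1 in iRhom2-/- library 8 was high, at 0.269 CPM, with the next at 0.112 CPM.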

How the results depend on the processing

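With few mice per group and levels near 1 CPM, the counts of members that fell depended on the test and on the filter, which can remove a member before it is tested. For values that moved the cause was not tested. The count was 4 at 8 weeks, against 336 of 19335 genes that fell. With at least 10 counts in every library it became 2 (335 of 17479 genes), a filter that removed Cd8a, Cd8b1 and Cd3d before testing. DESeq2 gave 11 (1023 of 19335) and the likelihood ratio test 10 (490 of 19335). Robust estimation gave 2 (378 of 19335), a joint fit 7 (159 of 20763) and male-labelled mice 0 (71 of 19786). At an adjusted p under 0.05 it was 0, against 270 genes called in either direction. In the 5 or 30 week cohort it was 1, against 78 of 18481 genes. It became 0 without a filter (49 of 29511), 2 with at least 10 counts (78 of 16500) and 4 with DESeq2 (384 of 18481). The likelihood ratio test gave 3 (129 of 18481) and a joint fit 0 (85 of 20763). At 0.05 it was 0, against 51 genes called in either direction. Combined it was 3, against 177 of 20763 genes. It became 0 with at least 10 counts (168 of 16045), a filter that removed Cd8b1, Bank1 and Cd27 before testing. DESeq2 gave 12 (364 of 20763), the likelihood ratio test 5 (250 of 20763) and the fit without the cohort term 1 (58 of 20763). With 8 and 10 weeks alone it was 0 (40 of 20030), and without both libraries that stood apart 7 (245 of 21105). At 0.05 it was 1, against 234 genes called in either direction. The interaction count of 0 became 1 with the likelihood ratio test of DESeq2, which called 495 of 20763 genes. Rhbdf2 at 10 weeks was -1.08 with male-labelled mice, no longer past the threshold.

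On log2(CPM + 1), which compresses low genes, the B, T and NK medians were -0.34, -0.95 and -0.33 at 8 weeks, -0.38, -0.40 and -0.41 in the 5 or 30 week cohort, and -0.26, -0.46 and -0.19 combined, and 0.014 for NK at 10 weeks. With at least 10 counts the T median was -1.89 at 8 weeks, the B and T medians -1.04 and -0.54 in the 5 or 30 week cohort, and the NK medians 0.59 at 10 weeks and -0.55 combined. Those medians cover only the members that the filter left. The NK median was -1.94 at 8 weeks and 0.024 at 10 weeks without a filter, -1.84 at 8 weeks in a joint fit, and -1.74 and 0.72 with male-labelled mice. With 8 and 10 weeks alone the B and NK medians were -0.23 and -0.51.

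The deviations of same-numbered mice were correlated at r from 0.0064 to 0.138 at 8 weeks and from -0.015 to 0.27 at 10 weeks. Other pairs ran from -0.18 to 0.16 at 8 weeks and from -0.36 to 0.22 at 10 weeks. At 10 weeks the highest values, 0.27 and 0.26, were those of same-numbered pairs, and the remaining same-numbered pair was at -0.015. The pair at 0.26 was labelled female in both genotypes. Whether same-numbered mice share more than a number was not tested. With a replicate block 8 members fell at 8 weeks, 0 at 10 weeks and 0 with both ages together, where the B and NK medians with the block were -0.29 and -0.62. Over all genes 678 of 19335, 19 of 18764 and 15 of 20030 fell in these fits.

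Leaving out 1 library at a time gave 0 to 2 members at 8 weeks, 0 to 0 at 10 weeks, 0 to 3 in the 5 or 30 week cohort, 1 to 15 combined and 0 to 0 for the interaction. The share of all genes called in these fits is not given here, so the counts stand without it. The B, T and NK medians ranged from -0.95 to -0.31, -2.88 to -1.40 and -2.15 to -0.75 at 8 weeks, from -0.37 to 0.62, -0.67 to 0.087 and -0.060 to 0.78 at 10 weeks, from -0.99 to -0.65, -1.10 to -0.58 and -1.32 to -0.87 in the 5 or 30 week cohort, and from -0.70 to -0.48, -1.26 to -0.73 and -1.37 to -0.81 combined. The log2 difference of the B to T ratio ranged from 0.62 to 1.27, -0.0034 to 0.40 and -0.30 to 0.020. Rhbdf2 ranged from -0.87 to -0.73 at 8 weeks, -1.34 to -1.09 at 10 weeks, -1.21 to -1.08 in the 5 or 30 week cohort and -1.11 to -1.04 combined. Gzma at 8 weeks ranged from -1.06 to 0.095, reversed without WT mouse 1.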

Other observations

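Jchain, the joining chain of secreted antibodies that plasma cells make, had separate levels within each genotype of the 5 or 30 week cohort. WT libraries 7 to 9 were read at 3.25, 16.8 and 7.57 CPM, and WT libraries 10 to 12 at 57.5, 74.8 and 114 CPM. iRhom2-/- libraries 7 to 9 were read at 229, 80.8 and 251 CPM, and iRhom2-/- libraries 10 to 12 at 0.702, 0.311 and 0.789 CPM. The age of these columns is not tied to them by a label, and no comparison was made.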
